A study of Mus musculus with 30 samples.

Results

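The 9 genes followed here, Spi1, Cebpa, Csf1r, Fcer1g, Tyrobp, Laptm5, Coro1a, Lcp1 and Ptprc, mark the myeloid branch of blood cell development or blood cells in general. They were chosen by gene symbol from the 14685 genes of an RNA-seq table of mouse embryonic stem cells (ESC) differentiated into blood progenitors, and all 9 were found in it. The choice was made with earlier results of these data known. The 30 samples were of the E14 ESC line in 3 genotypes: WT, Sp1_deltaDBD (called Sp1ΔDBD here), in which the DNA-binding domain of the transcription factor Sp1 is deleted and a truncated protein remains, and Sp3KO, in which the related factor Sp3 is knocked out. Each genotype was sampled in 5 populations with 2 biological replicates: ESC, Flk1 cells purified from embryoid bodies, and hemogenic endothelium 1 (HE1), HE2 and progenitors, which were sorted at day 2 of blast culture. HE1 was sorted as KIT+ CD41- Tie2+, HE2 as KIT+ CD41+ Tie2+ and progenitors as KIT+ CD41+ Tie2-. ESC were maintained on mouse embryonic fibroblast feeders and grown without them before differentiation. Each genotype is 1 cell line in these samples, so a difference between genotypes and a difference between lines cannot be told apart.

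Blood cells arise from a specialized hemogenic endothelium that loses endothelial genes as it takes on a blood program. Spi1 encodes PU.1, an ETS family factor that drives myeloid gene expression, and Cebpa encodes C/EBPα, which acts with it in granulocyte and macrophage development. Csf1r encodes the receptor for the macrophage growth factor CSF1. Fcer1g and Tyrobp encode membrane adaptors that carry ITAM motifs and pass signals from activating receptors to the kinase Syk. Laptm5 encodes a lysosomal membrane protein of blood cells. Coro1a and Lcp1 encode actin-binding proteins of leukocytes, coronin 1A and L-plastin, and Ptprc encodes the pan-leukocyte phosphatase CD45. Sp1 and Sp3 are zinc finger factors found in most cell types, and both recognize GC boxes, which are common in promoters.

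In the mm10 (GRCm38) build, Spi1 lies on chromosome 2 (91082390 to 91115756) and Cebpa on chromosome 7 (35119293 to 35121928). Fcer1g is on chromosome 1 (171229572 to 171234365), Tyrobp on chromosome 7 (30413760 to 30417585) and Laptm5 on chromosome 4 (130913125 to 130936141). Coro1a is on chromosome 7 (126699773 to 126707787), Lcp1 on chromosome 14 (75131101 to 75230842) and Ptprc on chromosome 1 (138062861 to 138175708). Exons of Coro1a overlap those of Bola2 on the opposite strand, and exons of Csf1r overlap Hmgxb3 in the same way. Cebpa and Lcp1 overlap antisense or long noncoding RNA genes. The libraries were stranded but the strand setting of the quantification is not given in the sources used here, so reads from such partners may be counted in these 4 genes.

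The promoters of Coro1a, Lcp1 and Ptprc are shown because these 3 genes were lower in Sp3KO progenitors than in WT progenitors as described further on, and because Sp3 recognizes GC boxes. Each window runs from 250 bases before to 50 bases after a RefSeq transcript start (GRCm38.p6), 5′ to 3′ on the strand of the gene. For 6 of the 9 genes a window was in the table used here, and for Coro1a, Lcp1 and Ptprc the first of 2 windows is shown. Capitals mark the GC box GGGCGG, read on both strands, in the first 2 and the ETS core AGGAAG, read on both strands, in the third.
Coro1a, chr7:126704767-126705066, minus strand: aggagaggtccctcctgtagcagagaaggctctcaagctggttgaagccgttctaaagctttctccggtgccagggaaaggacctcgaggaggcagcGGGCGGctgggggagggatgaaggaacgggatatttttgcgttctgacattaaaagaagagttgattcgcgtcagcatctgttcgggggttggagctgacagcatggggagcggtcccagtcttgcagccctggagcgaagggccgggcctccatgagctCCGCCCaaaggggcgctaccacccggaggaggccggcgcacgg
Lcp1, chr14:75130873-75131172, plus strand: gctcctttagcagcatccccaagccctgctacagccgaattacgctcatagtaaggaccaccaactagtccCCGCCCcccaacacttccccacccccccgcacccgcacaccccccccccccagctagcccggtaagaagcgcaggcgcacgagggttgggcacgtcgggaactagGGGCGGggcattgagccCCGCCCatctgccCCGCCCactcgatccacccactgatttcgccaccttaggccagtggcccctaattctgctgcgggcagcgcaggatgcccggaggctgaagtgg
Ptprc, chr1:138175256-138175555, minus strand: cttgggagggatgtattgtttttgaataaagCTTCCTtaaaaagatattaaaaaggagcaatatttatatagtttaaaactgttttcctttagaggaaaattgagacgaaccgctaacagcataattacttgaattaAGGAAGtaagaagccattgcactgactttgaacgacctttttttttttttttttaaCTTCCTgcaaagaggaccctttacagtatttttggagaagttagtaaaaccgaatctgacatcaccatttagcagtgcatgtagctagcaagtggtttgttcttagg
The Coro1a window shown held 2 GC boxes and the Lcp1 window 4, while the other Coro1a window held 1 and the other Lcp1 window none. No GC box was in either Ptprc window, nor in those of Fcer1g, Laptm5 and Cebpa. Of all 32851 promoter windows in the table, 35.7% held a GC box. The ETS core was present 3 times in the Ptprc window shown, 1 time each in the other Ptprc and the other Coro1a window and 2 times each in the Fcer1g and Laptm5 windows, and 35.4% of all windows held it. These matches describe the letters of the windows and were not tested as binding sites.

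Expression was measured as FPKM (mapped fragments scaled to transcript length and sequencing depth), a length-scaled level, quantile normalized by the authors over the samples. Read depth is unknown from these values. The median FPKM over the table was 7.19. Quantile normalization gave genes without reads the lowest value of their sample, which ranged from 0 to 0.0234 FPKM, and such genes are called here listed at the sample's lowest value. Differences were tested with limma on log2(FPKM + 0.1) across 14525 genes, with adjustment by the Benjamini-Hochberg method within each comparison and 0.05 as the threshold. With 2 samples per group, a two-sided exact permutation test of a single gene cannot go below p = 0.333. In Sp3KO cells Sp3 was at 3.78 to 7.45 FPKM (group means), against 26.1 to 46.7 FPKM in WT. Sp1 was at 17.6 to 38.3 FPKM in Sp1ΔDBD cells and 25.2 to 49.8 FPKM in WT, and a gene level does not show the deletion of a domain. Tek, which encodes Tie2, followed the sort in all 3 genotypes, averaging 150 to 187 FPKM in HE1 and 7.31 to 15.5 FPKM in progenitors. Itga2b, which encodes CD41, was lower in both HE1 samples than in the progenitor samples of WT (34.8 and 49.2 against 85.9 and 136 FPKM) and Sp1ΔDBD (42.8 and 55.7 against 59.1 and 119 FPKM). In Sp3KO cells it was not: HE1, sorted as CD41-, had 83.3 and 81.8 FPKM and overlapped with progenitors at 81.6 and 102 FPKM.

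The plot of FPKM by sample shows that all 9 genes had their highest group mean in progenitors in all 3 genotypes. In WT progenitors the mean levels ran from 37.5 FPKM for Laptm5 down through 29.6 for Tyrobp, 28.2 for Spi1, 27.6 for Lcp1, 25.1 for Coro1a, 6.39 for Fcer1g, 3.27 for Ptprc and 2.63 for Csf1r to 2.59 for Cebpa. The samples of the first 5 of these overlapped, as did those of the last 3, while the Fcer1g samples lay between both sets.

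**Figure D1:**
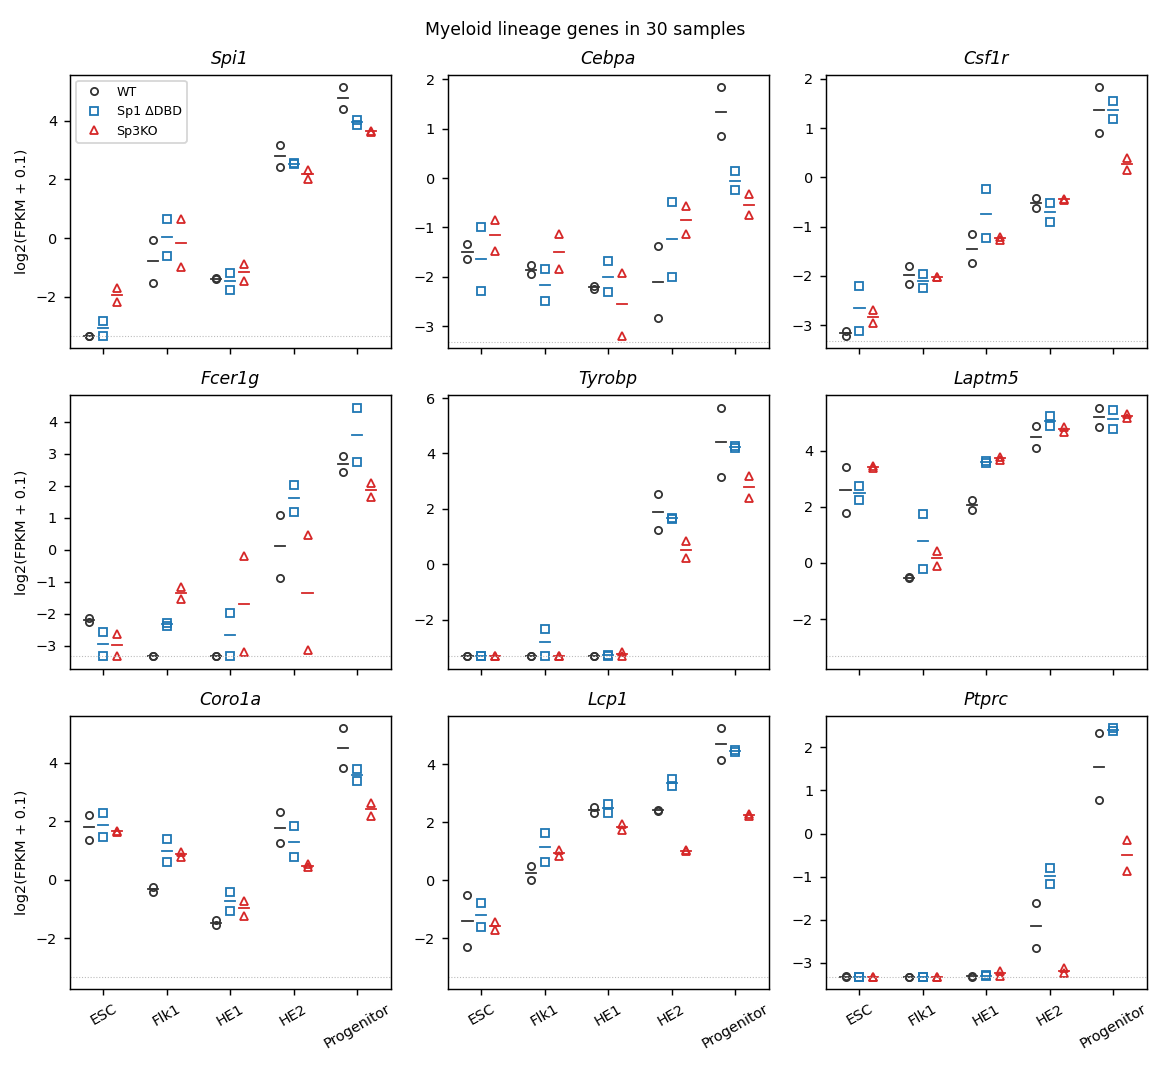
Levels of the 9 genes in all 30 samples on the log2(FPKM + 0.1) scale (vertical axis), by population (horizontal axis) and genotype (circles WT, squares Sp1ΔDBD, triangles Sp3KO), with 1 symbol per replicate, a short bar at the mean of the log2 values and a dotted line at an FPKM of 0. All 9 genes have their highest group mean in progenitors, and in that population the Sp3KO samples lie below both WT samples for 7 of the 9 genes.

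In WT cells the regulator Spi1 was at 0 FPKM in both ESC samples, at 0.867 and 0.246 in Flk1 cells (replicates 1 and 2) and at 0.289 and 0.280 in HE1. It reached 5.32 and 8.93 FPKM in HE2 and 20.9 and 35.5 FPKM in progenitors. Spi1 was thus low through HE1 and rose at both later steps, by 4.18 ± 0.51 (log2 fold change ± SE, 18.2-fold on the log2(FPKM + 0.1) scale, limma adjusted p = 2.10e-05) into HE2 and by 1.97 ± 0.51 (adjusted p = 0.0131) into progenitors. The rise into progenitors lost its call without replicate 1 of WT HE2 (1.60, adjusted p = 0.138) or without replicate 2 of WT progenitors (1.59, adjusted p = 0.122). Cebpa came later: it was at 0.0395 and 0.286 FPKM in WT HE2 and at 3.49 and 1.70 FPKM in WT progenitors, a rise of 3.45 ± 0.58 (limma adjusted p = 0.000390). In the populations before progenitors no WT sample had more than 0.297 FPKM of Cebpa.

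Csf1r, the receptor, climbed over the WT populations from 0.00774 and 0.0143 FPKM in ESC through 0.123 and 0.187 in Flk1 cells, 0.351 and 0.199 in HE1, and 0.643 and 0.548 in HE2 to 1.78 and 3.47 in progenitors. Its samples did not overlap between any neighboring pair of these populations, but the steps into HE1 and HE2 did not pass the test (limma adjusted p = 0.246 and 0.0893). The step into Flk1 cells did, with 1.19 ± 0.37 (limma adjusted p = 0.0120), and so did the step into progenitors, with 1.90 ± 0.37 (adjusted p = 0.00166).

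The ITAM adaptors came on with HE2. Tyrobp was listed at the lowest value in all 6 WT samples from ESC to HE1, at 2.25 and 5.63 FPKM in HE2 and at 8.80 and 50.4 FPKM in progenitors. The step into HE2 passed the test (limma adjusted p = 5.38e-06), and no fold is given because HE1 had no measurable level. The WT progenitor replicates differed by a factor of 5.73 for Tyrobp, and by factors of 1.43 to 3.08 for the other genes. The step into progenitors (2.53 ± 0.55, limma adjusted p = 0.00364) lost its call without replicate 1 of HE2 (1.89, adjusted p = 0.0795) or replicate 2 of progenitors (1.28, adjusted p = 0.0908). Fcer1g was listed at the lowest value in WT Flk1 and HE1 cells, at 2.04 and 0.445 FPKM in HE2 and at 5.26 and 7.52 FPKM in progenitors. Its step into HE2 passed the test (limma adjusted p = 0.0147) but not without either HE1 sample (adjusted p = 0.0670 and 0.0606) or without replicate 1 of HE2 (0.164) or with a pseudocount of 1 (0.0749), and its step into progenitors did not pass (2.57 ± 0.95, adjusted p = 0.0847) except with a pseudocount of 1 (0.00547) or the replicate number as a block (0.0350).

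Laptm5 and Coro1a were already measurable in WT ESC, at 3.33 and 10.7 FPKM for Laptm5 and 4.54 and 2.47 FPKM for Coro1a. Both fell in Flk1 cells, Laptm5 to 0.582 and 0.602 FPKM (limma adjusted p = 2.64e-05) and Coro1a to 0.731 and 0.653 FPKM (limma adjusted p = 0.000787). Laptm5 then rose at the next 2 steps, to 3.58 and 4.66 FPKM in HE1 (limma adjusted p = 0.000202) and 17.0 and 29.5 FPKM in HE2 (limma adjusted p = 0.00177), and progenitors at 28.7 and 46.3 FPKM overlapped with HE2. Coro1a was lowest in HE1, at 0.286 and 0.237 FPKM, and rose to 2.27 and 4.84 FPKM in HE2 (3.24 ± 0.47, limma adjusted p = 9.05e-05) and to 13.9 and 36.3 FPKM in progenitors (2.72 ± 0.47, limma adjusted p = 0.000446). The other actin regulator followed another course. Lcp1 was at 1.31 and 0.903 FPKM in Flk1 cells and rose to 4.91 and 5.58 FPKM in HE1 (2.17 ± 0.44, limma adjusted p = 0.000424), where Coro1a was lowest. In HE2 it had 5.09 and 5.30 FPKM (log2 fold change -0.01 ± 0.44 against HE1), and it rose to 37.7 and 17.5 FPKM in progenitors (2.29 ± 0.44, limma adjusted p = 0.00144).

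Ptprc was listed at the lowest value in 5 of the 6 WT samples from ESC to HE1 and at 0.000629 FPKM in the other, at 0.0583 and 0.227 FPKM in HE2 and at 1.60 and 4.93 FPKM in progenitors. The step into progenitors (3.69 ± 0.40, limma adjusted p = 4.81e-06) was called in all 9 alternatives that could be run, while the step into HE2 (limma adjusted p = 0.0414) was lost with a pseudocount of 1 (adjusted p = 0.607), without either HE1 sample (0.140 and 0.125) and without replicate 2 of HE2 (0.372).

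In WT cells 6 of the 9 genes were called higher in HE2 than in HE1, against 11.7% of all genes, and 7 of 9 were called higher in progenitors than in HE2, against 5.46% of all genes. None was called lower at either step. At the earlier steps 5 of 9 genes were called from ESC to Flk1 cells and 3 of 9 from Flk1 cells to HE1, in either direction, against 52.2% and 53.0% of all genes. The median change (log2) of the 9 genes was 2.43 into HE2 and 2.53 into progenitors, beside 0.05 and 0.04 over all genes tested. In Sp1ΔDBD cells the counts were 6 of 9 (background 9.74%) and 4 of 9 (6.73%), with medians of 2.04 and 1.99. In Sp3KO cells they were 3 of 9 (6.78%) and 4 of 9 (2.96%), with medians of 1.03 and 1.46. The smaller counts do not show by themselves that the steps differed between genotypes. Tested directly, the difference between genotypes in the step from HE1 to HE2 or from HE2 to progenitors passed the adjusted threshold for none of the 9 genes in either mutant. Over all genes, limma called 1 and 3 genes in these tests for Sp1ΔDBD (0.00688% and 0.0207%) and 0 and 4 for Sp3KO (0% and 0.0275%). Between progenitors and Flk1 cells the Sp3KO effect differed for 2 of the 9 genes, Coro1a and Lcp1 (background 3.33%). Unadjusted p-values of the differences between steps were under 0.05 for Cebpa from HE2 to progenitors in both mutants (0.0126 in Sp1ΔDBD and 0.00119 in Sp3KO), and in Sp3KO cells also for Csf1r at that step (0.0384) and for Coro1a (0.0136) and Fcer1g (0.0340) from HE1 to HE2.

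**Figure D2:**
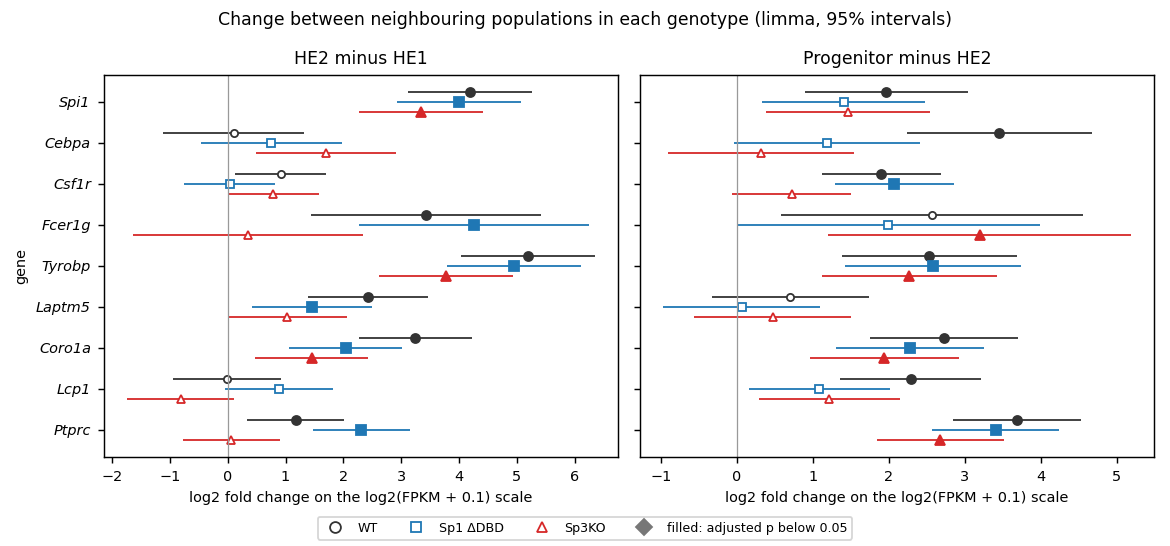
Log2 fold change of each gene (vertical axis) between HE1 and HE2 and between HE2 and progenitors in each genotype, on the log2(FPKM + 0.1) scale (horizontal axis), with limma 95% intervals as lines and filled symbols for an adjusted p below 0.05. Values for genes listed at the lowest value in HE1 (Tyrobp, Fcer1g and Ptprc) depend on the pseudocount. In Sp3KO cells 3 and 4 symbols are filled, against 6 and 7 in WT.

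Before HE2 few of these genes were called between genotypes. In ESC and Flk1 cells limma called none of the 9 in either mutant, where it called 6.06% and 5.54% of all genes for Sp1ΔDBD and 11.3% and 12.6% for Sp3KO. In HE1 it called 0 of 9 for Sp1ΔDBD (background 5.69% higher and 4.35% lower) and 1 of 9 for Sp3KO (10.9%). The gene called was Laptm5, at 12.7 and 13.7 FPKM in Sp3KO HE1 and 3.58 and 4.66 FPKM in WT HE1, a rise of 1.67 ± 0.49 (limma adjusted p = 0.0351). In Sp1ΔDBD HE1 it was at 11.6 and 12.3 FPKM, 1.53 ± 0.49 above WT (limma adjusted p = 0.0557, not called). It passed with a pseudocount of 1 (adjusted p = 0.0315), with the replicate block (0.0252) and with each population fitted alone (0.0329), and its adjusted p ran from 0.104 to 0.263 when 1 of its 4 samples was left out. Both mutants thus had higher Laptm5 values than both WT samples. The Sp3KO call was lost without any one of its 4 samples and with each population fitted alone. It was kept in 5 of 10 alternatives, over which its fitted value ran from 1.48 to 1.85. The later Laptm5 levels did not separate the genotypes: Sp3KO progenitors had 36.1 and 39.0 FPKM and Sp1ΔDBD progenitors 27.4 and 43.6 FPKM, all within the WT range of 28.7 to 46.3 except the lower Sp1ΔDBD sample.

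In Sp3KO progenitors 8 of the 9 genes had lower fitted levels than in WT, and 3 of them, Coro1a, Lcp1 and Ptprc, were called lower by limma (background 4.77% lower of all genes tested). None was called higher (3.88% of all genes). The median change (log2) of the 9 genes was -1.61, beside 0.04 over all genes. Both Sp3KO samples lay below both WT samples for 7 of the 9, while 56.2% of all genes had groups that did not overlap in either direction. The exceptions were Tyrobp, whose lower WT sample lay between the Sp3KO samples, and Laptm5. In bulk RNA fewer cells of a type and less RNA per cell cannot be told apart.

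Coro1a had 4.47 and 6.12 FPKM in Sp3KO progenitors against 13.9 and 36.3 in WT, 2.08 ± 0.47 lower on the log2 scale (4.24-fold, limma adjusted p = 0.00900). Both Sp3KO samples were far below the lower WT sample. The call was lost without replicate 2 of WT (-1.40, adjusted p = 0.128) or replicate 1 of Sp3KO (-1.86, adjusted p = 0.0948). Lcp1 had 4.72 and 4.50 FPKM against 37.7 and 17.5, a log2 fold change of -2.46 ± 0.44 (5.49-fold lower, limma adjusted p = 0.00244). It had the largest fitted decrease of the 9 genes in Sp3KO progenitors and was called when each of the 4 samples was left out. Ptprc had 0.448 and 0.807 FPKM against 1.60 and 4.93, a log2 fold change of -2.05 ± 0.40 (4.15-fold lower, limma adjusted p = 0.00410), with the call lost without replicate 2 of WT (-1.27, adjusted p = 0.0634) or replicate 1 of Sp3KO (-1.69, adjusted p = 0.0656). With each population fitted alone, which leaves few samples to estimate the spread, none of the 3 passed (adjusted p = 0.132, 0.0767 and 0.183 for Coro1a, Lcp1 and Ptprc).

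The regulators and the receptor pointed the same way without passing the test. Cebpa had 0.695 and 0.495 FPKM in Sp3KO progenitors against 3.49 and 1.70 in WT (-1.88 ± 0.58, limma adjusted p = 0.0501). Spi1 had 12.6 and 12.1 FPKM against 20.9 and 35.5 (-1.14 ± 0.51, limma adjusted p = 0.185). Csf1r had 1.22 and 1.01 FPKM against 1.78 and 3.47 (-1.10 ± 0.37, limma adjusted p = 0.0774). None of these 3 groups overlapped with WT. With a pseudocount of 1, which weighs low values less, all 3 passed (adjusted p = 0.00165, 0.0181 and 0.00870), as did Tyrobp (0.0393). Cebpa also passed with the replicate block (adjusted p = 0.0236). These values turned on the WT samples. Without replicate 1 of WT progenitors Csf1r was at -1.56 (limma adjusted p = 0.0423), and without replicate 2 at -0.64 (adjusted p = 0.453). Cebpa was at -1.39 (limma adjusted p = 0.291) without replicate 1 and at -2.38 (adjusted p = 0.0560) without replicate 2, and Spi1 at -1.52 (adjusted p = 0.181) and -0.76 (adjusted p = 0.559).

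Of the adaptors in Sp3KO progenitors, Tyrobp had 5.19 and 9.02 FPKM against 8.80 and 50.4 in WT (-1.61 ± 0.55, limma adjusted p = 0.0782). This value turned on the WT replicates, with -2.86 (limma adjusted p = 0.00218) without replicate 1 of WT progenitors and -0.36 (adjusted p = 0.747) without replicate 2. Fcer1g had 4.12 and 3.01 FPKM against 5.26 and 7.52 (-0.82 ± 0.95, limma adjusted p = 0.676).

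**Figure D3:**
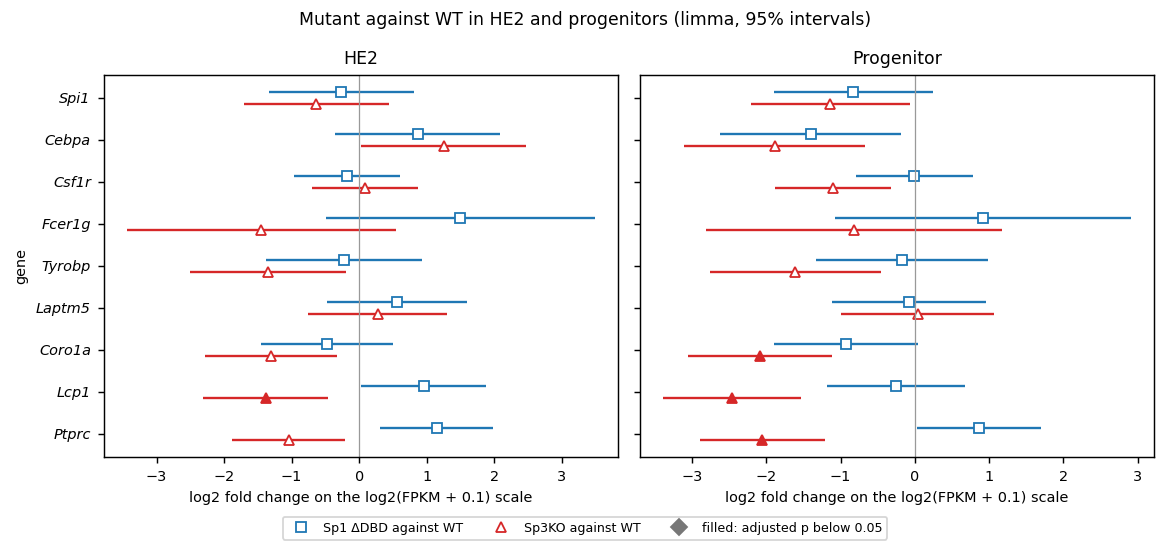
Log2 fold change of each gene (vertical axis) in Sp1ΔDBD cells (squares) and Sp3KO cells (triangles) against WT, in HE2 and in progenitors, on the log2(FPKM + 0.1) scale (horizontal axis), with limma 95% intervals as lines and filled symbols for an adjusted p below 0.05. The Sp3KO values lie below 0 for 8 of the 9 genes in progenitors, with Coro1a, Lcp1 and Ptprc filled, and no Sp1ΔDBD symbol is filled.

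In Sp3KO HE2 6 of the 9 genes had groups that did not overlap with WT, a share near the 59.0% of all genes in either direction. The Sp3KO samples were lower for 5 of them and higher for Cebpa. Lcp1 had 1.94 and 1.91 FPKM against 5.09 and 5.30 in WT, a log2 fold change of -1.39 ± 0.44 (limma adjusted p = 0.0438), and was the 1 of 9 called lower (background 6.84%). This call was kept in 4 of 10 alternatives. It was lost on leaving out any of its 4 samples, with each population fitted alone and without an intensity trend. The fitted value of Lcp1 stayed between -1.41 and -1.36 with a sample left out. Ptprc was listed at the lowest value in both Sp3KO HE2 samples, against 0.0583 and 0.227 FPKM in WT (limma adjusted p = 0.0882). Tyrobp had 1.68 and 1.06 FPKM against 2.25 and 5.63 (limma adjusted p = 0.108), and Coro1a had 1.24 and 1.34 FPKM against 2.27 and 4.84 (adjusted p = 0.0687). For these 4 genes the Sp3KO samples were below both WT samples, and so they were for Spi1 at 4.90 and 3.97 FPKM against 5.32 and 8.93 (adjusted p = 0.455). Cebpa differed in sign between the populations, with 0.354 and 0.572 FPKM in Sp3KO HE2 against 0.0395 and 0.286 in WT (1.25 ± 0.58, limma adjusted p = 0.160). The median change (log2) of the 9 genes in Sp3KO HE2 was -1.04, beside 0.03 over all genes.

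In Sp1ΔDBD cells none of the 9 genes was called in any population by limma, in 45 tests of which 7 had an unadjusted p under 0.05. The background of calls was 9.67% of all genes in HE2 and 8.78% in progenitors. In progenitors Cebpa had 0.997 and 0.743 FPKM against 3.49 and 1.70 in WT (-1.40 ± 0.58, limma adjusted p = 0.150), below both WT samples as in Sp3KO cells. It passed with a pseudocount of 1 (-0.90, adjusted p = 0.00676) and in none of the other 8 alternatives, with -0.90 (adjusted p = 0.536) without replicate 1 of WT and -1.90 (adjusted p = 0.121) without replicate 2. Spi1 had 14.5 and 16.1 FPKM against 20.9 and 35.5 (-0.83 ± 0.51, limma adjusted p = 0.370), and Coro1a had 13.5 and 10.3 FPKM against 13.9 and 36.3 (-0.93 ± 0.47, adjusted p = 0.249). Ptprc ran the other way, at 5.36 and 5.11 FPKM against 1.60 and 4.93 (0.87 ± 0.40, limma adjusted p = 0.204), and Csf1r, Tyrobp, Laptm5 and Lcp1 overlapped with WT. Fcer1g had 21.6 and 6.65 FPKM in Sp1ΔDBD progenitors, of which the higher was above and the lower within the WT range. In HE2 Ptprc had 0.475 and 0.341 FPKM against 0.0583 and 0.227 (1.15 ± 0.40, limma adjusted p = 0.0773) and Lcp1 9.36 and 11.0 FPKM against 5.09 and 5.30 (0.95 ± 0.44, adjusted p = 0.196). Both Ptprc differences turned on the WT samples. In HE2 the value was 1.67 (limma adjusted p = 0.0333) without replicate 2 of WT, 0.62 (adjusted p = 0.524) without replicate 1 and 0.30 (adjusted p = 0.445) with a pseudocount of 1. In progenitors it was 1.65 (limma adjusted p = 0.0153) without replicate 2 of WT and 0.08 (adjusted p = 0.963) without replicate 1. Over the 9 genes the median change (log2) in Sp1ΔDBD cells was 0.56 in HE2 and -0.17 in progenitors, and 3 of 9 and 4 of 9 had groups that did not overlap with WT, against 45.7% and 44.5% of all genes.

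Both mutant comparisons use the same WT samples, so the mutants were also compared with each other. Sp3KO progenitors had less Lcp1 than Sp1ΔDBD progenitors, 4.72 and 4.50 FPKM against 21.1 and 22.2 (-2.21 ± 0.44, limma adjusted p = 0.00319), and less Ptprc, 0.448 and 0.807 FPKM against 5.36 and 5.11 (-2.92 ± 0.40, 7.56-fold, limma adjusted p = 0.000119). Both Sp3KO samples lay far below both Sp1ΔDBD samples for each gene. Each of these 2 calls was lost only with each population fitted alone (adjusted p = 0.0588 for Lcp1 and 0.0860 for Ptprc) among the alternatives run. Coro1a, at 4.47 and 6.12 against 13.5 and 10.3 FPKM, did not pass (-1.16 ± 0.47, limma adjusted p = 0.116). Nor did Csf1r, at 1.22 and 1.01 against 2.84 and 2.17 FPKM (-1.09 ± 0.37, limma adjusted p = 0.0653), or Fcer1g, at 4.12 and 3.01 against 21.6 and 6.65 FPKM (-1.74 ± 0.95, adjusted p = 0.258), though both passed with a pseudocount of 1 (0.00753 and 0.0208) and Csf1r without an intensity trend (0.0467). Their adjusted p reached 0.269 for Csf1r and 0.704 for Fcer1g in the other alternatives. In all, 2 of 9 genes were called lower in Sp3KO than in Sp1ΔDBD progenitors (background 6.09%), and 8 of 9 had groups that did not overlap, against 50.3% of all genes.

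In HE2, 3 of the 9 genes were called lower in Sp3KO than in Sp1ΔDBD cells (background 8.45%), and 8 of 9 had groups that did not overlap, against 57.5% of all genes. In ESC, Flk1 cells and HE1 none was called between the mutants (background 9.67%, 7.39% and 13.6%). Lcp1 was at 1.94 and 1.91 against 9.36 and 11.0 FPKM (-2.34 ± 0.44, limma adjusted p = 0.00164), a call kept in all 10 alternatives. Ptprc was listed at the lowest value in Sp3KO HE2 and was at 0.475 and 0.341 FPKM in Sp1ΔDBD HE2 (limma adjusted p = 0.00122). It did not pass with a pseudocount of 1 (adjusted p = 0.147) or with each population fitted alone. Fcer1g was at 1.27 FPKM in 1 Sp3KO sample, was listed at the lowest value in the other and had 3.96 and 2.18 FPKM in Sp1ΔDBD HE2 (limma adjusted p = 0.0412), so that without the second Sp3KO replicate the difference was -1.15 (adjusted p = 0.549). That call was also lost without replicate 1 or 2 of Sp1ΔDBD (adjusted p = 0.155 and 0.0991), with each population fitted alone (0.252) and without an intensity trend (0.0514). For the regulators the intervals covered differences in either direction. The 95% interval of the difference in progenitors ran from -1.38 to 0.76 for Spi1 and from -1.70 to 0.74 for Cebpa.

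**Figure D4:**
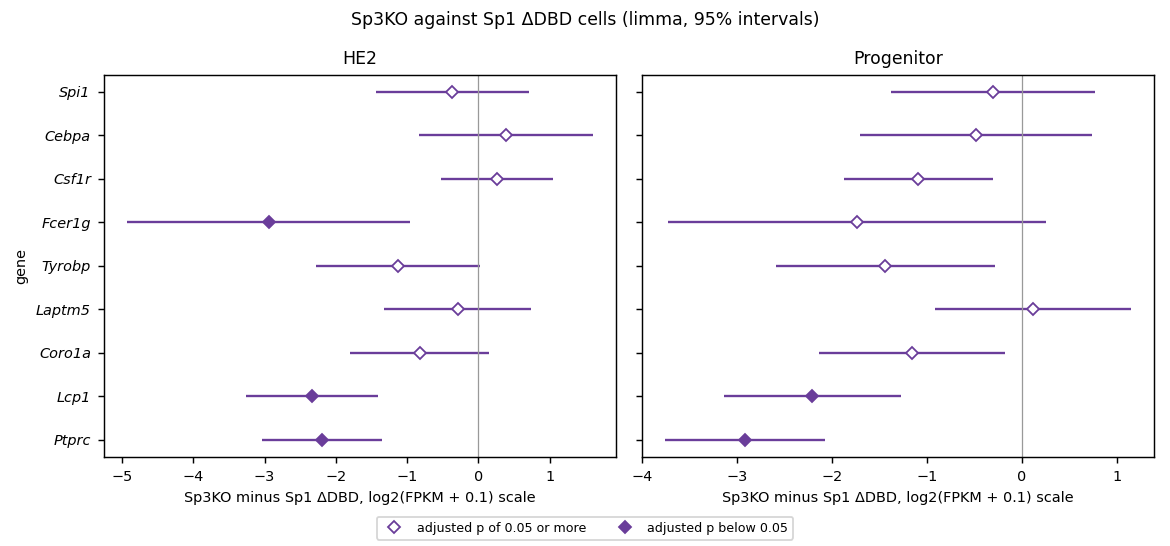
Difference between Sp3KO and Sp1ΔDBD cells for each gene (vertical axis) in HE2 and progenitors, on the log2(FPKM + 0.1) scale (horizontal axis), with limma 95% intervals as lines and filled symbols for an adjusted p below 0.05. Lcp1 and Ptprc are filled on the lower side in both populations, and Fcer1g in HE2.

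Other genes of the same cells were read from 5 lists. These lists were chosen with earlier results of these data known, so their counts are a description and not an independent test. Their counts stand beside 5.04% lower and 3.75% higher of all genes in Sp1ΔDBD progenitors and 4.77% lower and 3.88% higher in Sp3KO progenitors, and the median over all genes was 0.05 and 0.04. Among the hematopoietic actin and adhesion regulators, the group to which Coro1a and Lcp1 belong by function and from which they were left out here, 8 of 24 genes were called lower in Sp3KO progenitors (background 4.77%) and none higher (3.88%), with a median log2 fold change of -0.90. Tmsb4x, which encodes the actin-sequestering thymosin β4, had 174 and 165 FPKM against 843 and 956 in WT (-2.40 ± 0.23, limma adjusted p = 1.00e-05). Plek, encoding pleckstrin, had 29.3 and 26.8 FPKM against 85.4 and 187 (-2.17 ± 0.39), and Dock2, a Rac activator of leukocytes, had 0.770 and 0.629 FPKM against 5.18 and 2.34 (-2.17 ± 0.33). In Sp3KO HE2 5 of these 24 were called lower (background 6.84%) and 1 higher (6.97%), and the lower ones included Tmsb4x (-1.69 ± 0.23), Plek (-3.25 ± 0.39) and Dock2. In Sp1ΔDBD progenitors 2 of 24 were called lower (background 5.04%), Arpc1b and Capg, and the median was 0.03, close to that of all genes. In Sp1ΔDBD HE2 3 of 24 were called lower (background 4.97%) and none higher (4.70%), with a median of 0.06. Capg, a gelsolin family protein that caps actin filaments, was the gene of this list that fell in both mutants in progenitors, to 5.83 and 2.58 FPKM in Sp1ΔDBD and 4.62 and 4.68 FPKM in Sp3KO from 17.7 and 25.0 FPKM in WT.

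The list for ITAM receptor signaling holds activating and inhibitory receptors as well as signaling proteins that act downstream of Fcer1g and Tyrobp. All 20 of its measured genes had lower fitted levels in Sp3KO progenitors than in WT, and 4 were called lower (background 4.77%). They were Syk, the kinase that binds phosphorylated ITAMs (15.6 and 14.6 against 31.7 and 38.2 FPKM), the kinase Btk (1.26 and 1.14 against 6.16 and 3.96), the phosphatase Ptpn6 (22.4 and 19.1 against 29.5 and 49.2) and the inhibitory receptor Lilrb4a (0.960 and 1.95 against 3.60 and 19.9). The median was -0.96. In Sp1ΔDBD progenitors 1 of 20 was called, the activating receptor Trem1, which was higher at 6.63 and 4.14 FPKM against 1.63 and 1.19 (1.84 ± 0.33), a share near the background of 3.75%. In HE2 the list had 5 of 20 called lower in Sp3KO (background 6.84%), and 2 lower (4.97%) and 1 higher (4.70%) in Sp1ΔDBD cells.

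Of 21 granule and macrophage effector genes, 2 were called lower in Sp3KO progenitors (background 4.77%), with a median of -1.09: Alox5, the leukotriene-forming lipoxygenase (3.04 and 3.19 against 8.29 and 19.0 FPKM), and Ncf1, a subunit of the phagocyte oxidase (1.84 and 2.34 against 4.98 and 14.2). The granule enzyme Mpo, at 27.5 and 26.1 against 28.7 and 66.4 FPKM, was not called. In Sp1ΔDBD progenitors 1 of 21 was called lower, a share near the background of 5.04%, and it was Grn (8.78 and 17.5 against 18.8 and 31.0 FPKM), and the median was -0.06. In HE2 3 of 21 were called lower in each mutant, against 6.84% of all genes in Sp3KO and 4.97% in Sp1ΔDBD. None was called higher there (background 6.97% and 4.70%), and the medians were -0.93 and -0.30.

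The list of myeloid cytokine receptors also holds Toll-like receptors and cytokine genes. Of its 18 genes tested, 2 were called lower in Sp3KO progenitors (background 4.77%). Both encode β chains of receptors of the IL-3 and GM-CSF group. Csf2rb had 6.15 and 7.09 FPKM against 18.3 and 34.4 in WT (-1.91 ± 0.41) and Csf2rb2 had 1.39 and 1.58 against 5.23 and 4.89 (-1.71 ± 0.41). Il6st, the shared signaling chain gp130, was the 1 of 18 called higher in each mutant (background 3.75% in Sp1ΔDBD and 3.88% in Sp3KO), at 14.7 and 19.5 FPKM in Sp1ΔDBD and 15.4 and 15.4 FPKM in Sp3KO progenitors against 10.7 and 11.2 in WT. The median was -0.68 in Sp3KO and -0.07 in Sp1ΔDBD progenitors.

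The remaining list, 18 other myeloid transcription regulators, had 5 genes called lower in Sp1ΔDBD progenitors (background 5.04%) and 3 in Sp3KO progenitors (4.77%), with medians of -0.52 and -0.72. Batf3, a dendritic cell factor, was listed at the lowest value in all 4 mutant progenitor samples and had 1.19 and 1.67 FPKM in WT. Nfil3 was called lower in both mutants, at 0.510 and 0.372 FPKM in Sp1ΔDBD and 0.532 and 0.450 in Sp3KO against 1.35 and 1.21. Cebpe, a granulocyte factor, was listed at the lowest value in both Sp1ΔDBD progenitor samples and had 1.27 and 0.251 FPKM in WT. Fos and Klf4 were called lower in Sp1ΔDBD progenitors, Fos at 4.29 and 6.22 against 19.3 and 22.4 FPKM and Klf4 at 0.335 and 0.537 against 1.52 and 1.65, and Id2 was called lower in Sp3KO progenitors, at 1.20 and 1.28 against 13.1 and 3.70. Myb and Zeb2, the most abundant of this list with Junb, were not called in either mutant (limma adjusted p = 0.719 and 0.864 in Sp1ΔDBD and 0.795 and 0.0511 in Sp3KO).

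Markers of other cell types were read in the same samples. The summed level of 13 erythroid genes was 1796 to 4037 FPKM in Sp3KO progenitors against 5263 to 14789 in WT and 8136 to 10808 in Sp1ΔDBD, with 11 of 13 lower in Sp3KO than in WT and 2 called lower (background 4.77%). That of 11 megakaryocyte genes was 382 to 398 FPKM against 607 to 672 in WT and 507 to 682 in Sp1ΔDBD. In Sp3KO progenitors 8 of the 11 were lower than in WT and 1 was called lower (background 4.77%). In Sp1ΔDBD progenitors 9 of the 11 had higher fitted levels than in WT, with a median log2 fold change of 0.98, and none was called. In Sp3KO HE2 10 of the 13 erythroid genes were higher than in WT and 3 lower. There 2 were called higher (background 6.97%) and none lower (6.84%). Their summed level in Sp3KO HE2, 549 to 883 FPKM, lay within the WT range of 519 to 1032. The WT progenitor sample with more erythroid RNA (replicate 1) had lower values than replicate 2 for 7 of the 9 genes and higher values for Lcp1 and Cebpa. Tek, the gene for the Tie2 antigen that the progenitor gate excludes, was at 13.6 and 17.5 FPKM in Sp3KO progenitors against 8.67 and 5.95 in WT (1.09 ± 0.30, limma adjusted p = 0.0288). In Sp1ΔDBD progenitors it was at 15.7 and 9.54 FPKM, also above both WT samples, and was not called higher. Tek was the 1 of 13 endothelial genes called higher in Sp3KO progenitors (background 3.88%), and 2 were called lower (4.77%), with 6 higher and 7 lower in all. The summed level of these 13 genes, 189 to 219 FPKM, lay close to the 178 to 204 FPKM of WT. The summed level of 12 stem and progenitor genes, at 800 to 819 FPKM, lay within the WT range of 706 to 979. Of the 4 lymphoid genes in the table, none was called in Sp3KO progenitors, and they summed to 1.35 to 1.64 FPKM there and 1.94 to 2.20 in WT. The 3 mast cell genes in the table summed to 7.97 to 11.0 FPKM in Sp1ΔDBD progenitors against 1.36 to 3.13 in WT, and Cpa3, a mast cell protease, was called higher (limma adjusted p = 0.00415). The 13 mesenchymal and epithelial genes summed to 234 and 64.0 FPKM in the WT progenitor replicates and 59.2 to 60.1 in Sp3KO, with none called, and the 8 pluripotency genes to 9.91 to 14.0 FPKM in Sp3KO and 7.23 to 11.5 in WT. The part of these shifts in the levels of the 9 genes was not tested.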

How the data were processed

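RNA was measured by sequencing in 30 samples (5 populations, 3 genotypes, 2 biological replicates). According to the methods and the submitters' processing notes, the authors prepared stranded ribosome-depleted libraries, trimmed paired-end reads, aligned them with HISAT2 2.1.0 to mm10, and quantified genes with StringTie 1.3.3. The deposited FPKM values, made by the authors, are quantile normalized over genes above 1 FPKM in at least 1 sample, which forces one distribution on all samples, so a shift shared by most genes cannot be seen. Read depth is unknown, so no interval of counting error is given.

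Here log2(FPKM + 0.1) of the 14525 genes above 1 FPKM in a sample was fitted with limma 3.58.1 (R 4.3.3) over the 15 group means of all 30 samples, with an intensity trend, 15 residual degrees of freedom and the Benjamini-Hochberg adjustment at 0.05. SE and 95% intervals come from this fit. The study itself applied a fold threshold without a test. The fit was tested on simulated data with independent noise in each sample. That setting holds no effect shared by same-numbered replicates, so it does not bear on the choice of a fit without a block. Groups came from the GEO labels. The 9 genes and the gene lists were chosen with earlier results of these data known. From the lists, genes called in progenitors or HE2 and the most abundant were eligible to be named, and a selection is given. Alternatives were a pseudocount of 1, no filter or a filter at 3 FPKM, a replicate block, each population alone, no trend, and leaving out each replicate. Positions are from GENCODE for mm10 and promoters from RefSeq (GRCm38.p6).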

Additional observations from a re-analysis of the deposited data

Results flagged for a closer look

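The effect of Sp3KO differed between Flk1 cells and progenitors for Coro1a and Lcp1, by a test of the difference itself. Such differences were tested for 10 pairs of populations, and limma called 2 of 90 for these 9 genes in Sp3KO and 0 of 90 in Sp1ΔDBD cells (25 and 7 at an unadjusted p under 0.05). Between progenitors and Flk1 cells, 3.33% of all genes were called in Sp3KO.

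Coro1a had 1.61 and 1.83 FPKM in Sp3KO Flk1 cells against 0.731 and 0.653 in WT, and 4.47 and 6.12 FPKM in Sp3KO progenitors against 13.9 and 36.3 in WT. Its Sp3KO samples were thus above WT in Flk1 cells and below WT in progenitors, and the effects differed by -3.28 ± 0.66 on the log2 scale (limma adjusted p = 0.0115). Lcp1 had 1.97 and 1.68 FPKM in Sp3KO Flk1 cells against 1.31 and 0.903 in WT, and 4.72 and 4.50 FPKM in Sp3KO progenitors against 37.7 and 17.5, and its effects differed by -3.15 ± 0.63 (limma adjusted p = 0.0111). Neither gene was called between the genotypes in Flk1 cells itself. Without replicate 2 of WT Flk1 cells, 0 of the 90 differences were called. Without replicate 1 of Sp3KO Flk1 cells or replicate 1 of Sp3KO progenitors, 1 was. The number rose to 10 without replicate 1 of WT progenitors, to 5 without replicate 1 of WT ESC, and to 4 without replicate 2 of WT ESC, replicate 1 of WT HE2 or replicate 2 of WT progenitors. The WT progenitor samples that enter these values differ in erythroid RNA, at 14789 and 5263 FPKM summed over 13 genes, and its part was not tested.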

How the results depend on the processing

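No result changed direction while called. Of 45 tests for each mutant against WT, limma called 4 genes lower and 1 higher in Sp3KO and 0 in either direction in Sp1ΔDBD cells. With a pseudocount of 1 the counts were 8 lower in Sp3KO, and 1 lower and 2 higher in Sp1ΔDBD. With each population fitted alone they were 0 lower in Sp3KO and 2 higher in Sp1ΔDBD, and 2 of 45 in place of 5 between the mutants. The 1 higher in Sp3KO there was not Laptm5 in HE1, which lost its call. Differences of effect went from 2 to 10 of 90 in Sp3KO with a pseudocount of 1. With the replicate block they were 8 in Sp3KO and 1 in Sp1ΔDBD, and the block also gave 1 gene called higher in Sp1ΔDBD (Laptm5 in HE1, adjusted p = 0.0252), 5 lower in Sp3KO (with Cebpa in progenitors, adjusted p = 0.0236) and 22 steps in place of 21 in WT (Fcer1g from HE2 to progenitors, adjusted p = 0.0350). Leaving out 1 sample gave 1 to 9 lower and 0 to 1 higher in Sp3KO, 0 to 0 lower and 0 to 2 higher in Sp1ΔDBD, 4 to 6 between the mutants, and differences of effect of 0 to 10 in Sp3KO and 0 to 1 in Sp1ΔDBD. The 9 came without replicate 1 of WT progenitors and the 1 without replicate 1 of Sp3KO progenitors. Population steps ranged over 18 to 21 of 36 in WT (21 with all samples), 13 to 18 in Sp1ΔDBD (18) and 8 to 11 in Sp3KO (12). The causes were not tested. The deviations of same-numbered samples correlated with r of 0.169 to 0.443 between WT and Sp1ΔDBD in the 5 populations, 0.310 to 0.380 among HE1, HE2 and progenitors of WT and 0.347 to 0.543 among those of Sp1ΔDBD, and with r of -0.0255 to 0.151 between WT and Sp3KO and 0.0317 to 0.131 among HE1, HE2 and progenitors of Sp3KO. In WT HE1, HE2 and progenitors the 13 mesenchymal and epithelial genes summed to 1218, 318 and 234 FPKM in replicate 1. In replicate 2 the sums were 142, 31.8 and 64.0. Those of Sp1ΔDBD were 422, 200 and 95.6 against 34.1, 17.4 and 16.2. Those of Sp3KO were 138, 105 and 59.2 against 70.7, 74.1 and 60.1. These values are a hint of shared numbers in WT and Sp1ΔDBD. With 2 replicates per group and no label for a shared batch, a number is not taken as a pairing, and the fit without the block is the one reported. That fit treats same-numbered samples as independent, and whether they share a culture was not tested. The filter at 3 FPKM leaves out Cebpa and Csf1r. With 2 samples per group, low genes such as Ptprc and Cebpa depend most on the pseudocount.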

Other observations

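Genes whose profile over the 15 population and genotype means was most like that of each of the 9 genes are given as a description, since the 15 points share lines and the rise into progenitors. Ptprc resembled Cytip (Pearson r = 0.995), Fyb (0.994) and Cd180 (0.992), and Tyrobp resembled Traf3ip3 (0.994) and Lilrb4a (0.984). Spi1 resembled Rnf150 (0.964), Nfe2 (0.963), an erythroid and megakaryocyte factor, and Ikzf1 (0.961). Csf1r resembled Tmem14c (0.977) and Itgb2 (0.970), and Cebpa resembled Ms4a6b (0.903), Ccr1 (0.900) and Il1rn (0.897). Laptm5 resembled Inpp5b (0.987), Fcer1g resembled Treml1 (0.972), Coro1a resembled Ell2 (0.940) and Lcp1 resembled Arhgef6 (0.960).

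The mean profile of the 9 genes was closest to Hemgn (r = 0.979) and Slc4a1 (0.979), which are erythroid genes, followed by Treml1 (0.978) and Pf4 (0.977) of megakaryocytes among the myeloid genes Ncf1 (0.978) and Ccl9 (0.978). Among the 9 genes, r was highest for Fcer1g and Tyrobp (0.945) and for Spi1 and Tyrobp (0.945), and lowest for Coro1a and Lcp1 (0.259), which differed in ESC and HE1. All these values are over 15 group means.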
